A study of Mus musculus with 32 samples.

Results

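The genes described are 6 mouse genes that encode neuropeptide precursors, Sst, Nts, Penk, Npy, Gal and Tac1, out of 55806 gene identifiers counted in the series. They were chosen by name, and Sst was put at their head because its count had been seen to be far higher in kidneys carrying an ENL mutation in the Six2 lineage than in their controls. The levels of Sst in the Six2 mutants against their controls are therefore a description without a test. So are its change between the stages and its step between the mutant alleles, in the same libraries. The other genes and the other lineage were tested. ENL, encoded by Mllt1, reads acetylated histones through its YEATS domain and takes part in transcription elongation. The study placed YEATS mutations of Wilms tumor in mouse kidney lineages, on a C57BL/6J background, and counted polyadenylated RNA in 32 libraries of 11 groups.

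Each mutant embryo carried 1 conditional allele, EnlT1/+ (insertion 117_118insNHL) or EnlT3/+ (111_113NPP>K), which gives the mutant protein after Cre, and the controls were Enl+/+. In the Six2 cross every embryo, controls included, also carried Six2-TGCtg/+, a transgene that makes a GFP-Cre fusion under the Six2 promoter in nephron progenitors and so marks their descendants. In the Foxd1 cross every embryo carried Foxd1GC/+, a GFP-Cre insertion in Foxd1 that leaves 1 working copy of that gene and acts in stromal progenitors. Sorted cells came from embryos that also carried a Cre-dependent tdTomato reporter, and the tdTomato-positive cells were collected. The groups were whole Six2 kidneys at E18.5, late in gestation, from wild type, T1 and T3 (2 libraries each), sorted Six2-lineage cells of embryonic days E14.5 and E18.5 (wild type and T1, 3 each), sorted Foxd1-lineage cells of E18.5 (4 each) and whole Foxd1 kidneys of E18.5 (3 each).

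Neuropeptide genes encode long precursors that are cut by prohormone convertases, trimmed and often amidated, stored in dense-core granules and released to act on G protein-coupled receptors. Somatostatin (Sst) is made by interneurons and by endocrine cells of the pancreas and gut, where it inhibits the release of other hormones. Neurotensin (Nts), enkephalins (Penk), neuropeptide Y (Npy), galanin (Gal) and substance P (Tac1) are best known from neurons, though some of these genes are also transcribed in mesenchymal cells.

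The start of Sst holds a cyclic AMP response element (CRE), a classic site for factors of the CREB family, and the start of Nts holds an AP-1 motif, so the stretches around these motifs are shown for the pair of genes with the largest differences between genotypes. They are read 5′ to 3′ on the strand of the gene from RefSeq promoter entries on GRCm38.p6, which run from 250 bases before to 50 bases after the start, and the capitals mark the motif. Entries were found for 5 of the 6 genes, Penk being the one without.
Sst, chr16:23890874-23890903, minus strand: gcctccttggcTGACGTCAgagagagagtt
Nts, chr10:102490608-102490636, minus strand: aactctttctgTGAGTCAgaaatcctgag
The first base of the Sst motif lay at position -48 from the RefSeq start, within the first exon as GENCODE vM21 draws it, and that of the Nts motif at -207. The letters searched, on both strands, were TGACGTCA for the full CRE, which 1.79% of 32851 promoter entries held, TGANTCA for AP-1, held by 7.81%, and TGACG, which the full CRE contains and 20.8% held. None of the other 3 entries (Npy, Gal and Tac1) held the full CRE or the AP-1 letters, while Nts, Gal and Tac1 held TGACG. A match describes these letters only and was not tested for binding.

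Total counts ran from 67137194 to 157266455 in the libraries other than those of sorted Foxd1 cells, in which they ran from 2557443 to 3508381, so that 3 counts were worth at most 0.0446 CPM, the count scaled to library size, in the former and 0.833 to 1.21 CPM in the latter. CPM values are scaled by TMM factors within each of the 4 tables, which differ in library kit or read length or cross, so levels from different tables are set side by side and not tested. Mllt1, the targeted gene, is expressed from both alleles and read 76.5 to 104.5 CPM in whole Six2 kidneys and 98.5 to 125 CPM in whole Foxd1 kidneys. Gene counts do not separate the mutant from the wild-type codons and do not check the labels. The skeletal muscle markers (5 genes) summed to 49.9 CPM in wild-type replicate 2 of the whole Six2 kidneys against 4.79 in replicate 1, and to 99.1 CPM in T1 replicate 1 of the whole Foxd1 kidneys.

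Sst (chromosome 16, 23889573 to 23890958, minus strand) was close to 0 in normal kidneys and present in every library of the Six2 mutants. In whole kidneys of the Six2 cross it had 0 and 1 counts in the wild-type libraries, 1583 and 1228 counts (10.1 and 10.4 CPM) in T1 and 1733 and 1653 counts (16.2 and 14.6 CPM) in T3. All 4 mutant libraries lay far above both controls. From the summed counts, the ratio of T1 to wild type was 2880, with an exact 95% interval of 517 to 114000 that covers counting error only, and that of T3 to wild type was 4340 (778 to 171000). In bulk samples more cells of a type and more RNA per cell cannot be told apart, here and in what follows.

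The T3 kidneys had more Sst than the T1 kidneys in both libraries, a difference of 0.59 ± 0.12 (SE) on the log2 scale. Sst had been seen to be high in these libraries, so this difference is given without a test. Nts, Penk and Npy were not called between the alleles (adjusted p 0.788 to 0.891), where 0.00418% of 23931 genes were called. Every adjusted p here is from edgeR's quasi-likelihood test, adjusted by Benjamini and Hochberg's method, unless another tool is named.

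In sorted Six2-lineage cells Sst was present at a low level in normal cells and higher in mutants at both stages. At E14.5 it read 0.0936, 0.0999 and 0.0535 CPM in wild type (12, 14 and 7 counts) and 22.4, 21.5 and 23.2 CPM in T1. At E18.5 it read 0.379, 0.356 and 0.511 CPM in wild type (30, 28 and 36 counts) and 5.14, 4.42 and 4.86 CPM in T1. The genotypes did not overlap at either stage, and the T1 libraries of each stage lay close together. The ratio of T1 to wild type from summed counts was 271 (193 to 394) at E14.5 and 11.7 (9.49 to 14.6) at E18.5.

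Sst was higher at E18.5 than at E14.5 in wild-type cells and lower in T1 cells. From E14.5 to E18.5 the log2 change of Sst was 2.31 ± 0.23 in wild-type cells and −2.22 ± 0.14 in T1 cells, and in each genotype the libraries of the stages did not overlap. The difference between those steps was −4.52 on the log2 scale. The libraries are the same ones in which Sst had been seen to differ, so these values are given without a test.

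The Foxd1 cross gave a small Sst signal in sorted stromal cells. Sst had 2, 0, 0 and 1 counts in the 4 wild-type libraries and 6, 7, 12 and 6 counts (2.21, 2.33, 4.32 and 1.94 CPM) in the 4 T1 libraries. Every T1 library lay above every control, with an exact two-sided permutation p = 0.0286, which is the smallest that 4 against 4 libraries can give, and a ratio of 10.9 (3.41 to 55.9). The gene was under the low-count filter of the edgeR fit, and without the filter its log2 fold change was 3.23 (adjusted p = 0.000135). In whole Foxd1 kidneys it had 0, 1 and 4 counts in wild type and 1, 8 and 5 in T1, groups that overlapped (exact two-sided permutation p = 0.2, where 3 against 3 cannot go below 0.1).

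**Figure D1:**
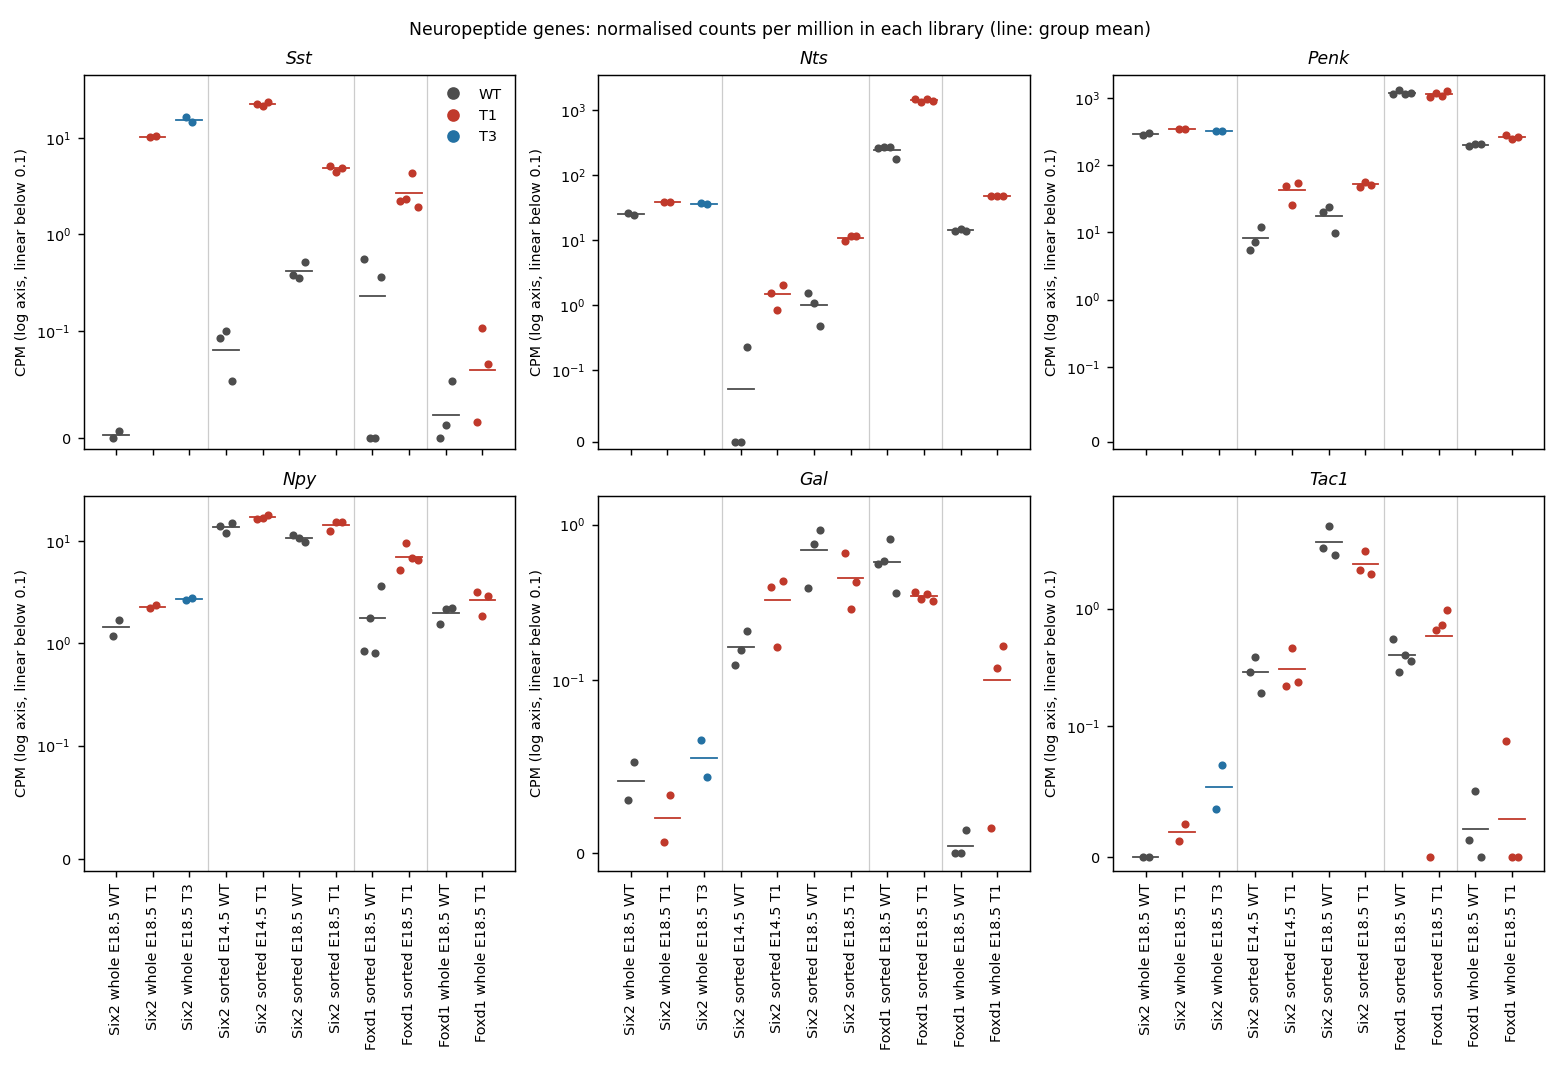
Normalised CPM of the 6 genes in each library (points, with a line at the group mean; grey wild type, red T1, blue T3; log axis, linear below 0.1). Sst lies at or under 0.511 CPM in every Six2-cross control and at or above 4.42 CPM in every Six2-cross mutant, while Nts is high in sorted Foxd1 cells of both genotypes and higher in T1.

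Nts (chromosome 10, 102481756 to 102490486, minus strand), the neurotensin precursor, was the peptide gene that rose in the most comparisons of a mutant with wild type, in 4 of 5 without counting sorted Six2 cells of E14.5, where it passed the low-count filter only through T1. In all 6 the mutant libraries lay above the controls. A gene was called there at an adjusted p under 0.05 with more than a 1.5-fold change. Its highest levels were in sorted stromal cells. In sorted Foxd1 cells it read 259, 270, 273 and 178 CPM in wild type and 1481, 1358, 1462 and 1373 CPM in T1, a log2 fold change of 2.53 ± 0.10 (adjusted p = 2.14e-11). In whole Foxd1 kidneys it read 13.8, 14.9 and 13.6 CPM in wild type and 46.7, 48.0 and 47.9 CPM in T1 (1.76 ± 0.06, adjusted p = 6.14e-10).

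In the Six2 cross Nts started from a much lower level in the sorted cells. At E18.5 they read 1.503, 1.06 and 0.469 CPM in wild type and 9.65, 11.6 and 11.4 CPM in T1 (log2 fold change 3.42 ± 0.28, adjusted p = 1.52e-06). At E14.5 the wild-type libraries had 0, 0 and 29 counts and the T1 libraries 219, 103 and 280 counts (0.843 to 2.01 CPM), so the fitted change of 4.32 ± 1.10 rests on 1 control library with any counts. The gene passed the filter there only through T1, in which it was high, so the change is given without a test.

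Whole Six2 kidneys showed a small rise of Nts. They read 26.3 and 23.8 CPM in wild type, 37.9 and 37.9 in T1 and 36.6 and 36.2 in T3. The T1 change of 0.60 ± 0.07 was called (adjusted p = 0.00152), and the T3 change of 0.54 ± 0.07 passed the p threshold (adjusted p = 0.00206) but stayed under 1.5-fold. Without wild-type replicate 2, the library with the muscle transcripts, the T1 change was 0.55 and also fell under 1.5-fold. The alleles did not differ detectably in Nts (−0.06 ± 0.07, adjusted p = 0.891).

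Penk (chromosome 4, 4133531 to 4138819, minus strand), the enkephalin precursor, was the most abundant of the 6 genes in whole kidneys and rose in mutant cells of the nephron lineage. In sorted Six2 cells of E14.5 it read 5.40, 7.12 and 11.9 CPM in wild type and 48.2, 25.7 and 54.3 CPM in T1 (log2 fold change 2.41 ± 0.34, adjusted p = 0.00307). At E18.5 it read 19.9, 23.5 and 9.82 CPM in wild type and 47.3, 56.7 and 51.2 CPM in T1 (1.55 ± 0.22, adjusted p = 0.000225). The genotypes did not overlap at either stage, and T1 replicate 2 of E14.5 and wild-type replicate 3 of E18.5 were the low libraries of their groups.

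Outside the sorted Six2 cells Penk was not called. Sorted Foxd1 cells read 1141 to 1298 CPM in wild type and 1020 to 1270 CPM in T1, overlapping ranges with a log2 change of −0.06 ± 0.07 (adjusted p = 0.674). Whole Six2 kidneys read 275 and 301 CPM in wild type, 340 and 339 in T1 and 317 and 316 in T3, and neither change was called (0.24 ± 0.07, adjusted p = 0.0547, and 0.14 ± 0.07, adjusted p = 0.22). In whole Foxd1 kidneys the T1 libraries (243 to 279 CPM) lay above the controls (191 to 208 CPM), with a log2 change of 0.38 ± 0.06 (adjusted p = 0.000353) that was under 1.5-fold. Of the exon bases of Penk, 14.3% are shared with A830012C17Rik, and the counting did not use strand, so reads there cannot be told apart.

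Npy (chromosome 6, 49822710 to 49829507, plus strand), the neuropeptide Y precursor, was detected in both lineages at low levels in stromal cells. Sorted Foxd1 cells had 3, 6, 2 and 10 counts in wild type and 14, 29, 19 and 20 in T1, or 0.806 to 3.62 CPM against 5.17 to 9.64 CPM. The T1 libraries lay above all controls (log2 fold change 2.01 ± 0.38). Npy passed the low-count filter there only through T1, in which it was high, so this change is given without a test. Whole Foxd1 kidneys had 1.54 to 2.20 CPM in wild type and 1.83 to 3.15 CPM in T1 (0.42 ± 0.22, adjusted p = 0.161).

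In sorted Six2 cells the T1 libraries lay slightly above the controls at each stage. They read 14.1, 11.9 and 15.1 CPM in wild type and 16.4, 16.9 and 18.1 in T1 at E14.5 (0.34 ± 0.10, adjusted p = 0.0713), and 11.4, 10.7 and 9.82 against 12.4, 15.5 and 15.4 CPM at E18.5 (0.44 ± 0.12, adjusted p = 0.017, under 1.5-fold). In whole Six2 kidneys Npy read 1.18 and 1.69 CPM in wild type, 2.23 and 2.34 in T1 and 2.65 and 2.76 in T3. The T3 change was called (0.91 ± 0.20, adjusted p = 0.0178) and the T1 change was not (0.67 ± 0.20, adjusted p = 0.065). These calls moved with the settings, since the T3 call was lost without either T3 library (adjusted p = 0.0735 and 0.0903) and the T1 change was called without wild-type replicate 2 (0.97, adjusted p = 0.00977).

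Gal and Tac1 were scarce and no change with genotype was called in the edgeR fits. Gal (chromosome 19, 3409915 to 3414544, minus strand) read 0.125 to 0.206 CPM in wild type and 0.164 to 0.431 CPM in T1 at E14.5, and 0.392 to 0.923 CPM against 0.288 to 0.653 CPM at E18.5. Both ranges overlapped (log2 change 1.04 ± 0.49, adjusted p = 0.227, and −0.58 ± 0.43, adjusted p = 0.418). Tac1 (chromosome 6, 7554879 to 7565834, plus strand) read 0.191 to 0.385 CPM in wild type and 0.219 to 0.466 CPM in T1 at E14.5, and 2.83 to 5.02 CPM against 1.98 to 3.07 CPM at E18.5. The E18.5 ranges overlapped too (−0.62 ± 0.24, adjusted p = 0.0948), although it was called by DESeq2 (adjusted p = 0.0465), without the filter (0.0145), with a replicate block (0.0407), without wild-type replicate 3 (0.0489) and without T1 replicate 2 (0.0449).

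In the other samples both genes were under the low-count filter. Gal had 12 counts in all in wild-type whole Six2 kidneys, 5 in T1 and 12 in T3, and Tac1 had 0, 5 and 12 counts. Whole Foxd1 kidneys had 0, 0 and 1 counts of Gal in wild type and 1, 9 and 12 in T1, with an exact two-sided permutation p = 0.1, the smallest possible there. Without the filter that Gal difference was called (adjusted p = 0.0218), as was the T3 difference of Tac1 (adjusted p = 0.0424). Sorted Foxd1 cells had 1 or 2 counts of Gal and at most 3 of Tac1 in a library, too few to show a difference at this depth.

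**Figure D2:**
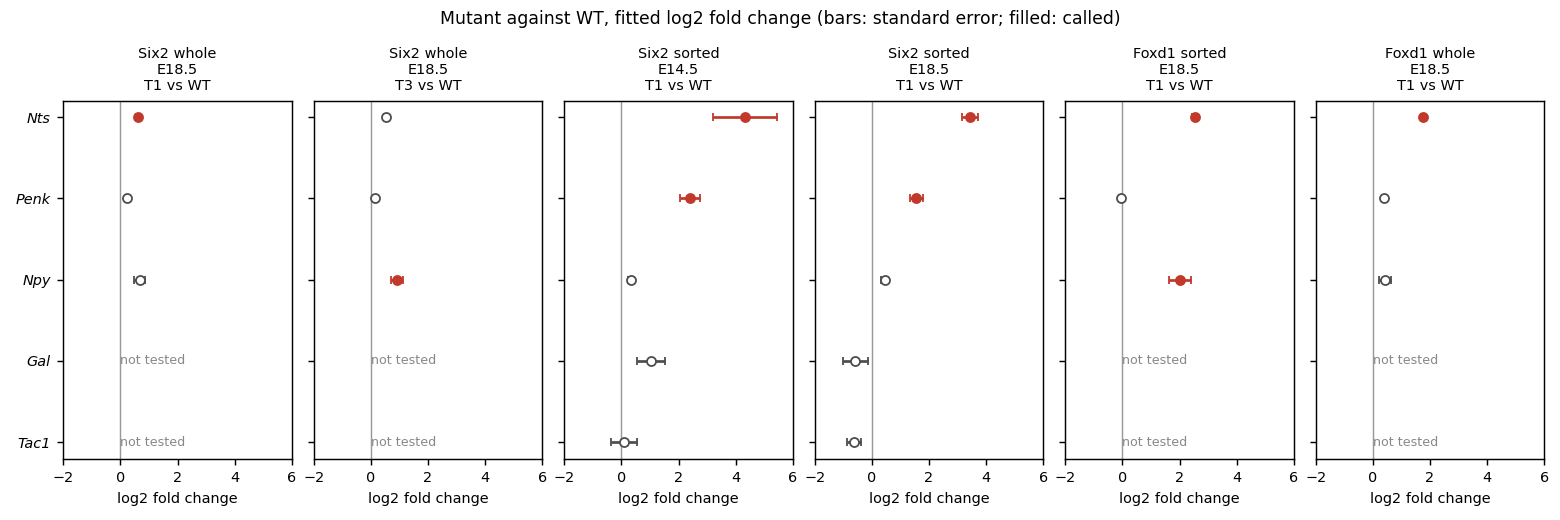
Fitted log2 fold change of the mutant against wild type for 5 genes in 6 comparisons (bars, standard error; filled red, called; open, not called; "not tested", under the low-count filter). Nts is the gene called in most panels. Nts in sorted Six2 cells of E14.5 and Npy in sorted Foxd1 cells passed the filter only through T1 and are drawn as fitted. Sst is left out because it was chosen on the Six2 comparisons and was under the filter in the Foxd1 ones.

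Set against all genes, the peptide genes were called upward as follows. In whole Six2 kidneys 1 of 3 tested was called up in T1, where 2.88% of all genes were, and 1 of 3 in T3, where 4.34% were. In sorted Six2 cells 1 of 4 was called up at E14.5 (all genes 4.11%) and 2 of 5 at E18.5 (6.14%), in sorted Foxd1 cells 1 of 2 (3.63%) and in whole Foxd1 kidneys 1 of 3 (2.65%). No peptide gene was called down with genotype, where the shares of all genes, in the same order, were 4.88%, 5.28%, 2.28%, 5.54%, 2.18% and 7.53%. These counts leave out Sst in the Six2 comparisons, and Nts at E14.5 and Npy in sorted Foxd1 cells, which passed the filter only through T1. So few genes do not allow a share to be read closely. The same shares of all genes stand beside the calls of each gene list below.

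Most of these genes were higher at E18.5 than at E14.5 in normal nephron-lineage cells. The paper dissociated kidneys with trypsin at E14.5 and with collagenase II, for longer, at E18.5. Stage and dissociation therefore cannot be told apart in any step between the stages. In wild-type sorted Six2 cells Tac1, Gal and Penk rose from E14.5 to E18.5 (adjusted p under 0.01 with more than a 2-fold change). Of all genes, 24.8% rose and 20.6% fell by that rule. Tac1 rose by 3.67 ± 0.37 on the log2 scale (adjusted p = 4.75e-07) and Gal by 2.07 ± 0.50 (adjusted p = 0.00178). Nts had 0, 0 and 29 counts in the wild-type E14.5 libraries and passed the low-count filter only through other groups. Its change of 3.78 ± 0.80 rests on 1 library of that stage and is given without a test. Penk rose by 1.12 ± 0.33 (adjusted p = 0.00773), a call that was lost in 4 of the 6 fits that left out 1 wild-type library. Npy changed by −0.36 ± 0.12 (adjusted p = 0.0113) and was not called.

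In T1 cells the same step was called for 2 of the 5 genes other than Sst. Nts (2.88 ± 0.61, adjusted p = 0.00068) and Tac1 (2.97 ± 0.36, adjusted p = 3.95e-06) rose, where 24.4% of all genes rose and 19.8% fell, and the call of Nts was lost in DESeq2 (adjusted p = 0.0266). Penk (0.27 ± 0.32, adjusted p = 0.459) and Gal (0.47 ± 0.48, adjusted p = 0.393) were not called. The steps of the 2 genotypes share no libraries, and the test of their difference called none of the 5 genes other than Sst (adjusted p 0.182 to 0.757; Gal was the 1 gene with an unadjusted p under 0.05, 0.0339), where 3.94% of all genes had a more positive and 4.22% a more negative difference.

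The mutant effect differed between lineages for 3 of the 4 genes tested in the 14 sorted libraries of E18.5. The T1 change was smaller in Foxd1 cells than in Six2 cells for Penk (a difference of −1.63 ± 0.24, adjusted p = 4.22e-05) and for Nts (−0.89 ± 0.26, adjusted p = 0.0205), and larger in Foxd1 cells for Npy (1.58 ± 0.40, adjusted p = 0.00801). Among all genes, 8.25% had a more positive and 7.63% a more negative difference. For Sst the fitted difference was −0.11, given without a test. The lineages differ in read length and depth, which cannot be told apart from lineage in the levels, and the Nts difference was lost without wild-type replicate 3 of the sorted Six2 cells (adjusted p = 0.0652) and in DESeq2 (adjusted p = 0.0689).

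Per length, as mean CPM per kilobase of exon, the order of the genes differed between samples. In wild-type whole Six2 kidneys the levels were 176 for Penk, 20.1 for Nts, 2.54 for Npy, 0.0529 for Gal, 0.00457 for Sst and 0 for Tac1, and only the neighbours Sst and Tac1 had overlapping ranges. In T1 kidneys Sst at 14.2 came after Penk at 208 and Nts at 30.4 and before Npy at 4.04, and in T3 kidneys it held the same place at 21.4. In wild-type sorted Foxd1 cells Penk (727) stood above Nts (196), and in T1 cells Nts (1137) stood above Penk (697).

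In sorted Six2 cells of E14.5, Sst was behind Npy, Penk and Gal in wild type and level with Npy and Penk in T1. In wild type Npy led at 24.2 CPM per kilobase, followed by Penk at 4.99, Gal at 0.207, Sst at 0.114, Tac1 at 0.0848 and Nts at 0.0592, the last 3 with overlapping ranges. In T1 cells Sst at 31.0, Npy at 30.3 and Penk at 26.2 had overlapping ranges, and Nts was at 1.18. By E18.5 the order in T1 cells was Penk (31.6), Npy (25.5), Nts (8.69) and Sst (6.67), with no overlap between these neighbours. Sst was the lowest of the 6 in wild-type cells of that stage at 0.576, in a range that overlapped with Nts at 0.809.

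Within each stage, the stromal matrix transcript Col1a1 varied with Penk and Nts across the sorted Six2 libraries. Between the stages Nts did not follow it. Nts read 0.843 to 2.01 CPM in T1 at E14.5 and 9.65 to 11.6 CPM in T1 at E18.5, where Col1a1 was not higher. At E14.5 Col1a1, a fibrillar collagen, read 84.7, 78.3 and 147 CPM in wild type and 730, 326 and 641 CPM in T1, and replicate 2 was the lowest T1 library for Col1a1, Penk and Nts alike. At E18.5 it read 156, 188 and 95.4 CPM in wild type and 342, 428 and 394 CPM in T1, and wild-type replicate 3 was the lowest library for Col1a1, Penk and Nts. Sst in T1 replicate 2 of E14.5 was 21.5 CPM, close to the 22.4 and 23.2 of the others. The part of stromal cells in the changes of Penk and Nts was not tested.

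The stroma list (7 genes) summed to 498 to 639 CPM in wild type and 911 to 1767 CPM in T1 at E14.5, and to 325 to 557 against 789 to 910 CPM at E18.5. Of its 7 genes 5 rose and 1 fell at E14.5 (all genes 4.11% and 2.28%), and 4 rose and 2 fell at E18.5 (6.14% and 5.54%). Of its 3 transcription factor genes, Meis1 rose at both stages (0.64 ± 0.08, adjusted p = 0.00125, and 1.26 ± 0.11, adjusted p = 1.73e-06) and Foxd1 fell at both (−0.96 ± 0.16, adjusted p = 0.00571, and −1.93 ± 0.10, adjusted p = 2.87e-08). Tcf21 was not called at E14.5 (−0.03 ± 0.12, adjusted p = 0.931) and fell at E18.5 (−0.93 ± 0.08, adjusted p = 3.12e-06). In sorted Foxd1 cells the list summed to 6571 to 8407 CPM in wild type and 6155 to 6872 CPM in T1. There 2 of its genes fell (all genes 2.18%), while Nts rose.

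**Figure D3:**
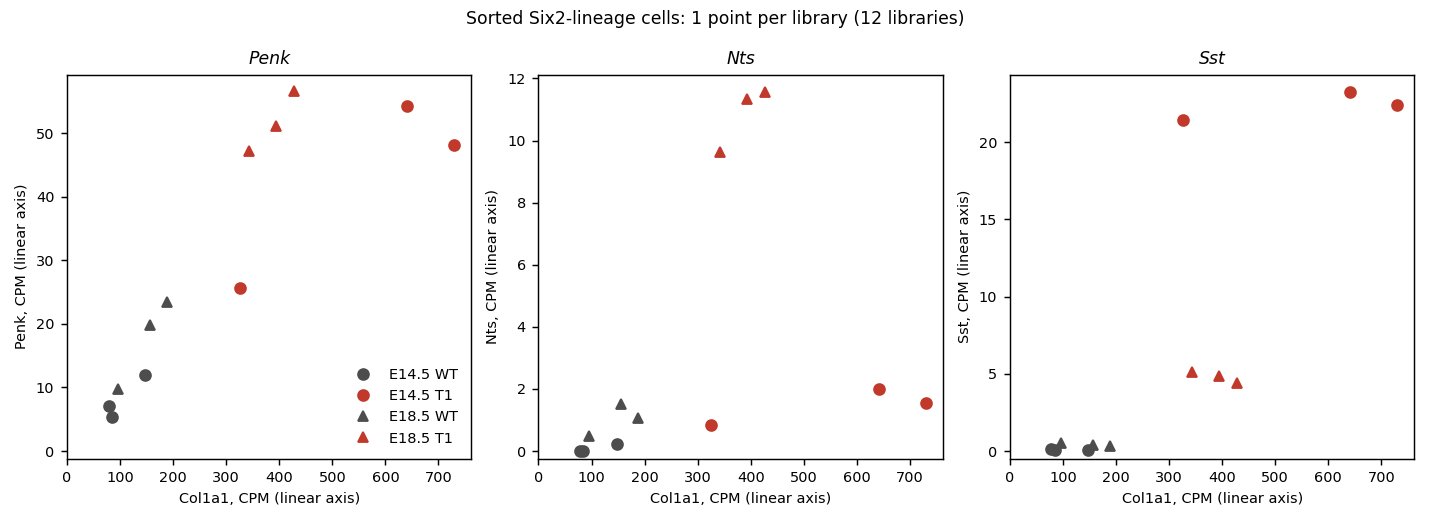
CPM of Penk, Nts and Sst (linear axes) against CPM of Col1a1 in the 12 libraries of sorted Six2-lineage cells (circles E14.5, triangles E18.5; grey wild type, red T1). At each stage the T1 libraries are higher than wild type in both Col1a1 and Penk, and Sst lies between 21.5 and 23.2 CPM in E14.5 T1 libraries that range from 326 to 730 CPM of Col1a1.

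Markers of neurons, in which neuropeptides are best known, were present in the sorted Six2 cells and higher in T1 at E14.5. The neuron list (11 genes) summed there to 26.9 to 27.9 CPM in wild type and 35.0 to 45.0 CPM in T1, ranges that did not overlap. Of 10 tested, 2 rose (all genes 4.11%), among them Stmn2 (113 to 149 counts against 421 to 1140). Dbh, whose product makes noradrenaline, belongs to the chromaffin list below and not to the neuron list. It had 189, 0 and 0 counts in the T1 libraries of E14.5 and 0 in all 3 of E18.5. At E18.5 the neuron list summed to 26.3 to 34.6 and 28.0 to 31.7 CPM, 2 genes rising (all genes 6.14%). In whole Six2 kidneys it summed to 14.9 to 17.2 CPM in wild type, 17.8 to 19.2 in T1 and 17.8 to 21.6 in T3.

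The summed chromaffin list (5 genes, Th, Dbh, Pnmt, Slc18a1 and Ddc) was lower in mutants except in sorted Foxd1 cells. There it overlapped, at 5.55 to 12.8 CPM in wild type and 6.48 to 10.7 CPM in T1. It summed to 32.6 to 62.7 CPM in wild-type whole Six2 kidneys against 11.3 to 14.1 in mutants. Of 4 tested genes 2 fell in T1 (all genes 4.88%) and 3 in T3 (5.28%). The summed Schwann cell list (6 genes) was higher, at 66.8 to 70.9 CPM in wild-type and 74.1 to 79.2 CPM in mutant whole Six2 kidneys. In sorted Six2 cells of E18.5 it was 37.8 to 46.6 against 77.3 to 80.7 CPM. Few of its genes were called. In whole Six2 kidneys 1 of 6 tested rose with each allele (all genes 2.88% in T1 and 4.34% in T3), with a median log2 change of −0.06 in T1. In the sorted cells 1 of 3 tested rose (6.14%). The adrenal cortex list (7 genes) summed to 4.64 to 6.86 CPM in wild-type and 5.24 to 6.66 CPM in T1 sorted Six2 cells of E14.5, with none of 3 tested genes called and the steroid enzyme gene Cyp11b1 at 0 counts in all 6 libraries. At E18.5 it summed to 12.3 to 14.4 CPM in wild type and 14.99 to 15.8 CPM in T1, ranges that did not overlap. There 2 of 4 tested genes rose (all genes 6.14%). In sorted Foxd1 cells the neuron list summed to 23.5 to 49.2 CPM in wild type and 47.6 to 56.5 CPM in T1. There 1 of its genes rose (all genes 3.63%). The part of the neural, Schwann cell and adrenal transcripts in the peptide gene changes was not tested. Whether other kidney cells express these list genes was not tested either, so a sum is not a count of cells of that type.

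Nephron markers were present in the sorted Six2 cells and fell in their mutants. Six2 itself read 806, 933 and 847 CPM in wild-type and 509, 534 and 390 CPM in T1 sorted Six2 cells of E14.5, and 9.60 to 19.4 CPM in sorted Foxd1 cells. The nephron progenitor list (5 genes) summed to 1619 to 1895 CPM in wild type and 803 to 995 CPM in T1 at E14.5, and to 440 to 574 against 178 to 235 CPM at E18.5. The podocyte list (5 genes) summed to 2761 to 3233 CPM in wild-type and 192 to 244 CPM in T1 sorted Six2 cells of E18.5, and to 424 to 744 CPM in wild-type sorted Foxd1 cells and 442 to 584 CPM in their T1. The part of the changed cell makeup in any of these differences was not tested.

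The genes whose log2(CPM + 0.1) followed each peptide gene most closely over the 12 sorted Six2 libraries differed from one peptide gene to the next. For Sst the 5 closest included Cdh7 (Pearson r 0.97), Gata2 (0.96), Hspb6 (0.96) and Adh1 (0.95), out of 16521 protein-coding genes. For Nts they were Dkk3, Eln, Col5a1, Ntm and Col6a3 (r 0.98 each), which include elastin and collagens. For Penk they included Rasd2, Pdgfra, Stbd1 and Tmem45a (r 0.97 to 0.98), Pdgfra being a stromal receptor. For Npy they included Epha5, Tbx18, Olfr960 and Elmod1 (r 0.93 to 0.96).

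These correlations describe 12 libraries that share 4 groups and their depths, so that any gene that differs between the groups in a similar way ranks high. With Spearman's measure 1 of the 5 genes stayed the same for each of the 4 peptide genes. Over the 8 sorted Foxd1 libraries the genes most like Nts were Cbln2, Maob, Hoxa9, Fxyd7 and 1500015O10Rik (r 0.99 to 1.00 when rounded), and none of them was among the 5 by Spearman's measure.

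Of the 5 somatostatin receptors, Sstr1, Sstr2 and Sstr3 differed with genotype in some samples and Sstr4 and Sstr5 were scarce. Sstr1 rose in whole Six2 kidneys, from 0.561 and 0.797 CPM to 1.64 and 1.70 CPM in T1 (1.29 ± 0.22, adjusted p = 0.00671) and 1.61 and 1.66 CPM in T3 (1.26 ± 0.22, adjusted p = 0.0067). Sstr2 is a main receptor on hormone-secreting cells. In normal nephron-lineage cells it read 0.413 to 0.476 CPM at E14.5 and 10.7 to 11.97 CPM at E18.5 (4.66 ± 0.31, adjusted p = 4.2e-09). In T1 cells of E18.5 it was higher still, at 16.0, 18.6 and 26.0 CPM (0.84 ± 0.15, adjusted p = 0.00128).

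Sstr3, which signals from the primary cilium, fell in the Six2 cross in whole kidneys and at E14.5, and was not called at E18.5 in sorted cells (−0.89 ± 0.44, adjusted p = 0.194). At E14.5 it read 2.87, 4.32 and 4.46 CPM in wild-type and 0.430, 1.01 and 0.503 CPM in T1 sorted cells (−2.58 ± 0.34, adjusted p = 0.00202). In whole Six2 kidneys it read 0.515 and 0.329 CPM in wild type, 0.0827 and 0.102 in T1 and 0.140 and 0.0797 in T3 (−2.19 ± 0.46, adjusted p = 0.0177, and −1.93 ± 0.46, adjusted p = 0.0257), and each of these calls was lost in 3 fits without 1 library. Sstr5 had at most 10 counts in any library, and Sstr4 was not called in any comparison in which it was tested. Cort, whose product cortistatin binds the same receptors, read under 0.25 CPM on average in every group.

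Receptors of the other peptides were also called. Ntsr1, the high-affinity neurotensin receptor, fell in both sorted lineages, where its ligand gene rose. It went from 30.1 to 37.2 CPM to 13.7 to 19.2 CPM at E14.5 (−1.04 ± 0.13, adjusted p = 0.0015), from 22.2 to 26.7 CPM to 7.32 to 9.80 CPM at E18.5 (−1.50 ± 0.12, adjusted p = 1.19e-06), and from 14.9 to 35.8 CPM to 9.04 to 12.3 CPM in sorted Foxd1 cells (−1.26 ± 0.23, adjusted p = 0.00138). It also fell in whole Foxd1 kidneys (−0.59 ± 0.09, adjusted p = 0.000395), a call lost in 6 of 14 other settings, DESeq2 and 2 fits without 1 library among them. Sort1, which binds neurotensin and sorts proteins in the Golgi, rose in sorted Foxd1 cells (0.59 ± 0.15, adjusted p = 0.0141), a call lost in 3 of the fits without 1 library.

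The delta opioid receptor gene Oprd1, whose product binds enkephalins, was higher in T1 sorted Six2 cells of E18.5, at 0.0710 to 0.369 CPM against 2.21 to 4.17 CPM (3.76 ± 0.42). It was also higher in T3 whole kidneys (2.15 ± 0.61). In both it passed the low-count filter only through mutants, so these changes are given without a test. In whole Foxd1 kidneys Oprd1 rose (1.41 ± 0.39, adjusted p = 0.0129). The neuropeptide Y receptor gene Npy1r rose in sorted Six2 cells of E14.5 (2.16 ± 0.37, adjusted p = 0.00662) and E18.5 (1.49 ± 0.40, adjusted p = 0.0177) and in T3 kidneys (1.03 ± 0.24, adjusted p = 0.0218). Tacr1, the substance P receptor gene, rose in whole Six2 kidneys of T1 (1.98 ± 0.17, adjusted p = 0.000333) and T3 (1.84 ± 0.17, adjusted p = 0.000381) and in sorted cells of E18.5 (1.59 ± 0.14, adjusted p = 3.12e-06). The call of Npy1r at E18.5 was lost in 2 fits without 1 library, and that of Npy1r in T3 in 3. Npy6r fell in T1 kidneys of both crosses, from 0.530 and 0.639 CPM to 0.0382 and 0.0339 CPM in the Six2 cross and from 0.603 to 0.676 CPM to 0.0967 to 0.159 CPM in the Foxd1 cross.

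Npy2r, a further neuropeptide Y receptor gene, fell in whole kidneys of each mutant. It read 1.22 and 1.56 CPM in wild type of the Six2 cross, 0.395 and 0.467 CPM in T1 (−1.69 ± 0.24, adjusted p = 0.00347) and 0.364 and 0.319 CPM in T3 (−2.02 ± 0.25, adjusted p = 0.00155). In whole Foxd1 kidneys it fell too (−1.10 ± 0.30, adjusted p = 0.012), a call lost in 1 fit without 1 library. The other called receptor genes were the opioid receptor gene Oprk1, up in sorted Six2 cells of E18.5 (5, 7 and 4 counts in wild type and 37, 28 and 31 in T1), Galr3, down at E14.5 (−2.64 ± 0.70, adjusted p = 0.043, lost in 5 fits without 1 library), and Tacr3, up in whole Foxd1 kidneys (0.62 ± 0.17, adjusted p = 0.0155, lost in 2).

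The list of 22 receptor genes had called members in both directions. In whole Six2 kidneys 2 rose and 3 fell of 16 tested in T1 (median log2 change −0.09, against −0.01 over all genes), where 2.88% of all genes rose and 4.88% fell, and 4 rose and 3 fell of 16 in T3, where 4.34% rose and 5.28% fell. In sorted Six2 cells 1 rose and 3 fell of 16 at E14.5 (all genes 4.11% and 2.28%), and 5 rose and 1 fell of 14 at E18.5 (6.14% and 5.54%, median 0.18 against 0.02). In the Foxd1 cross 1 rose and 1 fell of 3 in sorted cells (3.63% and 2.18%) and 3 rose and 3 fell of 15 in whole kidneys (2.65% and 7.53%). Some called list genes passed the low-count filter through mutants only, such as Oprk1, Oprd1 in the Six2 cross and, in sorted Foxd1 cells, Pnoc. The counts of this list and of those that follow are therefore a description.

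**Figure D4:**
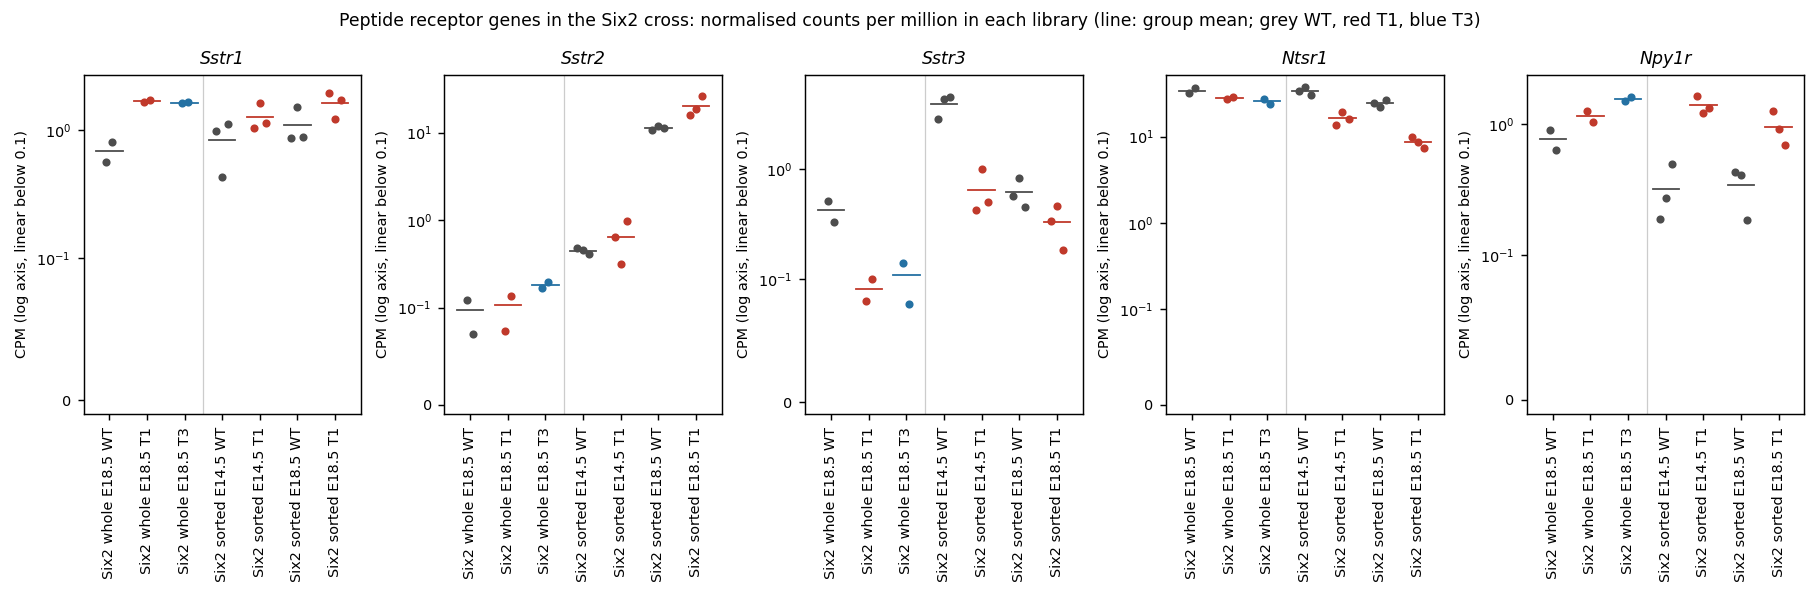
Normalised CPM of 5 receptor genes in each library of the Six2 cross (points, with a line at the group mean; grey wild type, red T1, blue T3; log axis, linear below 0.1; the grey vertical line divides whole kidneys from sorted cells). Sstr3 and Ntsr1 are lower and Npy1r is higher in T1 than in wild type among the sorted cells of E14.5, and Sstr2 is above 10 CPM in both genotypes only at E18.5 among the sorted cells.

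Genes that process peptide precursors rose in part in mutant cells. The convertase gene Pcsk5 rose in sorted Six2 cells of E14.5 (0.77 ± 0.08, adjusted p = 0.000553) and E18.5 (0.63 ± 0.07, adjusted p = 2.48e-05) and in sorted Foxd1 cells (1.13 ± 0.09, adjusted p = 1.72e-07). Pcsk2, a convertase of neuroendocrine granules, rose in sorted Six2 cells at both stages (1.05 ± 0.29, adjusted p = 0.0472, and 0.89 ± 0.15, adjusted p = 0.000721), the E14.5 call being lost in 5 of 6 fits without 1 library, and the amidating enzyme gene Pam rose at E18.5 (0.96 ± 0.06, adjusted p = 2.06e-07). Qpct, which forms the N-terminal pyroglutamate that neurotensin carries, rose in sorted Six2 cells of E14.5 (0.73 ± 0.15, adjusted p = 0.0159, lost in 3 fits without 1 library) and E18.5 (1.03 ± 0.20, adjusted p = 0.00242). In sorted Foxd1 cells it rose from 9.40 to 39.1 CPM to 70.1 to 85.1 CPM (1.80 ± 0.21, adjusted p = 1.14e-05). Pcsk6 fell in sorted Six2 cells of E18.5 (−1.23 ± 0.08, adjusted p = 1.56e-07) and the carboxypeptidase gene Cpe fell in sorted Foxd1 cells (−1.31 ± 0.14, adjusted p = 3.71e-06).

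Of the 13 processing genes none of 12 tested was called in whole Six2 kidneys with either allele. Among the sorted Six2 cells 3 of 12 rose at E14.5, where 4.11% of all genes rose, and 4 rose and 1 fell of 11 at E18.5, where 6.14% rose and 5.54% fell. In the Foxd1 cross 2 rose and 1 fell of 9 in sorted cells (all genes 3.63% and 2.18%) and 2 of 12 rose in whole kidneys (2.65%). Of the 9 granule genes, of which 1 to 9 were tested, at most 1 was called in each direction in any genotype comparison. Scg3, a granin, was the one called up in whole Six2 kidneys, at 0.315 and 0.415 CPM in wild type against 0.706 and 0.883 CPM in T1 (1.11 ± 0.28, adjusted p = 0.035), a call lost in 3 fits without 1 library.

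Peptidases of the tubule brush border fell with genotype at E18.5. Of 13 genes of peptide breakdown, all tested, 3 fell in T1 and 4 in T3 whole Six2 kidneys (all genes 4.88% and 5.28%), 4 fell in sorted Six2 cells of E18.5 (5.54%) and 2 fell in whole Foxd1 kidneys (7.53%). At E14.5 it was otherwise, with 2 of 13 rising (all genes 4.11%), and in sorted Foxd1 cells 1 rose and 1 fell of 12 tested (3.63% and 2.18%). Mme (neprilysin), which cleaves enkephalins and other peptides, fell from 410 and 416 CPM to 172 and 185.2 CPM in T1 whole kidneys (−1.21 ± 0.06, adjusted p = 4.92e-05) and rose at E14.5 in sorted cells from 12.7 to 14.2 CPM to 22.9 to 29.8 CPM (1.01 ± 0.11, adjusted p = 0.001). Anpep fell in whole Six2 kidneys of T1 by 2.78 ± 0.10 on the log2 scale (adjusted p = 1.93e-05). Enpep was the other gene up at E14.5 (0.62 ± 0.17, adjusted p = 0.0493, lost in 5 fits without 1 library) and Ece1 the gene up in sorted Foxd1 cells (0.62 ± 0.16, adjusted p = 0.0191, lost in 3). The proximal tubule markers (5 genes) moved with these peptidases, at 1201 to 1628 CPM in wild-type and 222 to 299 CPM in mutant whole Six2 kidneys, and their part in the fall was not tested.

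Among 57 other peptide genes, of which 7 to 28 were tested, some rose and some fell in each cross. In whole Six2 kidneys 3 rose and 3 fell of 25 with each allele (all genes 2.88% and 4.88% in T1, 4.34% and 5.28% in T3). In sorted Six2 cells 2 rose and 1 fell of 22 at E14.5 (4.11% and 2.28%) and 5 rose and 4 fell of 28 at E18.5 (6.14% and 5.54%). In the Foxd1 cross 1 of 7 rose in sorted cells (3.63%), and 5 rose and 6 fell of 28 in whole kidneys (2.65% and 7.53%). Sct (secretin) rose in all 4 Six2 comparisons and in whole Foxd1 kidneys, by 0.91 to 1.26 on the log2 scale. Pnoc (the nociceptin precursor) read 0.292 to 0.723 CPM in wild-type and 3.66 to 5.17 CPM in T1 sorted Foxd1 cells, a change of 3.09 ± 0.42 given without a test, and fell in sorted Six2 cells of E18.5 (−1.83 ± 0.55, adjusted p = 0.0305), the latter call being lost in 5 of 6 fits without 1 library.

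Vip (vasoactive intestinal peptide), by contrast, fell in whole kidneys of both crosses. It went from 3.502 and 2.85 CPM to 0.566 and 0.730 CPM in T1 of the Six2 cross (−2.30 ± 0.21, adjusted p = 0.000475) and from 2.41 to 3.46 CPM to 0.134 to 0.651 CPM in the Foxd1 cross (−2.94 ± 0.36, adjusted p = 4.2e-05). Adm2 fell in both as well (−1.56 ± 0.26, adjusted p = 0.00678, and −1.17 ± 0.25, adjusted p = 0.00332). Edn3 rose in sorted Six2 cells at both stages (0.75 ± 0.12, adjusted p = 0.00493, and 1.25 ± 0.16, adjusted p = 9.38e-05). Npb rose in whole Six2 kidneys of both alleles (0.98 ± 0.13, adjusted p = 0.00267, in T1), and Adm fell in them and in sorted cells of E18.5 (−1.31 ± 0.10, adjusted p = 4.97e-07).

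Of the genes next to Sst, those that were tested were not called in the Six2 cross at E18.5 and were called in part at E14.5 and in the Foxd1 cross. On the side of lower coordinates stand Rtp4 (275 kilobases away), Masp1 (369) and Rtp1 (456), and on the other side Rtp2 (34.6), Bcl6 (74.1) and the gene model Gm37419 (97.5). In whole Six2 kidneys 3 of these 6 were tested and none was called, with log2 changes of −0.26 to 0.45 in T1. At E14.5, 2 of 4 tested were called up (all genes 4.11%). Masp1 (0.80 ± 0.07, adjusted p = 0.000311) and Bcl6 (0.81 ± 0.16, adjusted p = 0.0113) rose, while Sst was 271-fold higher. At E18.5 none of the 3 tested was called. Masp1 rose in the Foxd1 cross too, from 8.18 to 10.5 CPM to 23.4 to 34.6 CPM in sorted cells (1.65 ± 0.17, adjusted p = 1.84e-06) and in whole kidneys (0.91 ± 0.09, adjusted p = 7.76e-06), where Bcl6 fell (−0.75 ± 0.15, adjusted p = 0.00195).

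Of 13 transcription factor genes known from somatostatin cells of brain, pancreas and gut, or as regulators of the Sst promoter, none of the 9 tested was called in whole Six2 kidneys or in sorted Six2 cells of E18.5. Sox6 rose in sorted Six2 cells of E14.5 (0.96 ± 0.24, adjusted p = 0.0358), a call lost in 4 of 6 fits without 1 library. In sorted Foxd1 cells Crem, a relative of CREB, rose (0.65 ± 0.17, adjusted p = 0.0153), a call lost in 2 fits without 1 library.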

How the data were processed

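Polyadenylated RNA was sequenced from 32 mouse kidney libraries. The deposited counts are whole reads per Ensembl gene, which the authors obtained by aligning to mm10 with HISAT2 and counting with HTSeq without strand and with no minimum quality, and the annotation release is not given in the sources used here. Whole kidneys and sorted cells had different kits. Names and places came from GENCODE vM21 (55450 of 55806 identifiers). Groups and replicate numbers came from the sample titles, and 0 other per-sample columns were found.

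The analysis used edgeR 4.0.16 under R 4.3.3 (TMM factors, filterByExpr with minimum count 10 and total 15, quasi-likelihood test, Benjamini-Hochberg adjustment over all genes tested). The 6 whole Six2 libraries were fitted together, each other genotype comparison on its own libraries, development and stage by genotype on 12 libraries and lineage by genotype on 14. Genes were called at adjusted p under 0.05 and over 1.5-fold, for development under 0.01 and over 2-fold, and for interactions under 0.05. Standard errors are those implied by the test. The 6 genes were named throughout, with the somatostatin receptors, called genes of the peptide pathway lists, the 5 genes most correlated with a called gene, and the 3 protein-coding neighbours of Sst on each side. The genes and lists were chosen with earlier results of these data known.

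Genes under the filter were compared by count ratios with exact binomial 95% intervals and by exact permutation tests (scipy 1.17.1); intervals and the limit of 3 counts cover counting error only. Nothing states that libraries of a group came from separate litters, so p-values measure the spread between these samples. No pair of libraries agreed within sampling noise, and same-numbered libraries did not deviate together (correlations −0.0791 to 0.139), so numbers were not treated as pairs. The fits were tested on simulated data. Alternatives were edgeR's exact test, DESeq2 1.42.0, other factors and filters, a replicate block and each library left out. Figures were drawn with matplotlib 3.10.9. Some genes that these rules name are not reported here.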

Additional observations from a re-analysis of the deposited data

Results flagged for a closer look

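In sorted Foxd1 cells, 2 of 12 sets of 4 libraries held 1 value far from the others, where chance marks about 1 set in 20. T1 replicate 3 was the highest library for Sst at 4.32 CPM, with a gap to its neighbour of 0.837 of the group's range, and wild-type replicate 4 was the lowest for Nts at 178 CPM, with a gap of 0.846. The Nts difference between genotypes was called without either library.

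The T1 effect differed between sorted Foxd1 and sorted Six2 cells of E18.5, by edgeR's test of the difference, for Penk (−1.63 on the log2 scale, adjusted p = 4.22e-05), Nts (−0.89, adjusted p = 0.0205) and Npy (1.58, adjusted p = 0.00801). All 4 Foxd1 T1 libraries lay above their controls for Nts and Npy, and the Penk ranges overlapped, while all 3 Six2 T1 libraries lay above their controls for all 3 genes.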

How the results depend on the processing

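In 697 repeats of the fitted changes of the 6 genes under other settings, 658 kept direction and side of the threshold, 18 lost and 19 gained a call, and 2 turned, both for Tac1 at E14.5 (−0.123 without wild-type replicate 3 and −0.321 without T1 replicate 2, in a range up to 0.366 without 1 library). The counts of called genes moved by over 1.5 times as follows. Whole Six2 T1, with 1, had 2 with edgeR's exact test, DESeq2, library size only, no filter or a filter over 1 CPM. Whole Six2 T3, with 1, had 2 with library size only, no filter or no fold threshold, and 0 to 2 without 1 library. T3 against T1, with 0, had 1 with the exact test, and 1720 of its genes had an unadjusted p under 0.05. Sorted E14.5, with 2 (Nts and Penk), had 1 with DESeq2 or a filter over 1 CPM and 1 to 2 without 1 library. Whole Foxd1, with 1, had 2 with no filter or no fold threshold and 1 to 2 without 1 library. Stage by genotype, with 0, had 0 to 1 without 1 library, Nts being called without wild-type replicate 3 of E14.5. Other counts moved by 1 gene: sorted E18.5 from 2 to 3 (Tac1) and sorted Foxd1 from 2 to 3 (Sst) when the filter was removed and in other settings, wild-type development from 5 to 4, and T1 development and lineage by genotype from 3 to 2 with DESeq2 (Nts). These counts take in Sst in development and between the alleles, Nts in wild-type development and at E14.5, and Npy in sorted Foxd1 cells. Those changes are given above without a test. The causes were not tested, except that removing a filter or threshold admits more genes.

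With the replicate block, Tac1 fell at E18.5 (−0.606, adjusted p = 0.0407) and the rise of Penk in wild-type development was lost (1.17, adjusted p = 0.0125); no other call of these genes changed. Depth limits Sst, Gal and Tac1 in sorted Foxd1 cells. Groups have 2 to 4 libraries. The Sst means under other scalings, added after seeing the data, ran from 21.4 to 23.7 CPM in E14.5 T1 cells. Over other settings, 105 calls of genes of the other lists kept direction and call in 1319 repeats, lost the call in 149 and turned in 0.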
